A study of Mus musculus with 9 samples.

Results

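The genes described here encode the nuclear subunits of the oxidative phosphorylation complexes. They were followed in mouse embryonic stem cells (ESCs) that lack the maintenance DNA methyltransferase DNMT1 or carry an inactive form of it. Members were chosen by symbol alone: the Nduf genes of complex I with the letters a, b, c, s or v and a number, Sdha to Sdhd, all Uqcr genes, the lettered Cox4 to Cox8 genes and all Atp5 genes, without Ndufa4l2 and pseudogene symbols. The rule found 79 genes among 15074 in the table, 37 of complex I, 4 of complex II, 8 of complex III, 13 of complex IV and 17 of complex V. It used no measured value. It leaves out Ndufab1, Cyc1, Cox4i1 and Cox4i2, which are subunits too and are given as partners. Ndufa4 was counted with complex I by its symbol, although its protein is now assigned to complex IV. Cox7a2l too was counted with complex IV by its symbol alone, and whether its protein is a subunit was not checked. The subunits encoded by mitochondrial DNA were not analysed here.

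Complexes I to IV form the respiratory chain of the inner mitochondrial membrane. Complex I takes electrons from NADH and complex II from succinate, complex III passes them to cytochrome c and complex IV to oxygen, and complexes I, III and IV pump protons. Complex V, the ATP synthase, lets the protons flow back and makes ATP. Naive ESCs are known to use both respiration and glycolysis, and primed cells to rely more on glycolysis. Several complex IV subunits have isoforms restricted to muscle, lung or testis beside a widely expressed one.

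Polyadenylated RNA was sequenced once for each of 9 conditions, 3 cell lines at 3 times. WT was the J1 line. 1KO was a Dnmt1-/- line derived from J1. 1KO+1CI was a clone of 1KO carrying a transgene for catalytically inactive DNMT1 under the CAG promoter. Day 0 cells were ESCs grown with LIF and serum on inactivated embryonic fibroblasts, with feeders removed by brief plating on gelatin when differentiation was started. Whether the day 0 RNA samples were depleted in the same way is not given in the sources used here. Days 2 and 4 were times after LIF was withdrawn, first as embryoid bodies and then in adherent culture, toward epiblast-like cells. Each condition was 1 library of 1 line, so line and clone cannot be told apart, and no spread between cultures of 1 condition was measured.

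Values are FPKM, fragments counted per length of transcript and per sequencing depth. Depth, recovered from the steps of low values on the assumption that 1 step is 1 read, was 20200000 to 28000000 reads a library. Dnmt1 transcript was at 48.5 to 80.4 FPKM in the WT libraries, 12.3 to 17.4 in those of 1KO and 129.0 to 314.6 in those of 1KO+1CI, so the lines kept the order of their labels at each day. Counts cannot tell whether the reads left in 1KO came from the deleted part. Pluripotency markers went with the labels in part. Of 7 genes, 5 were called lower at day 4 than at day 0 in the additive fit described below, and 2 at day 2. Pou5f1 and Nanog were not called at day 4. From day 0 to day 4, Pou5f1 rose from 632.1 to 1008.0 FPKM in WT but fell in both mutant lines. Nanog was at 205.3, 58.8 and 171.2 FPKM in 1KO at days 0, 2 and 4.

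All 79 subunit genes reached 1 FPKM in some library, but over a wide range of levels. The ATP synthase catalytic subunit gene Atp5b was highest, with a mean of 933.7 FPKM over the 9 libraries, and the complex I gene Ndufb4c lowest, at 1.08. Within complex I, the mean ranged up to 245.5 for Ndufa4. Complex II was narrow, from 61.9 for the iron-sulfur subunit Sdhb to 76.7 for the flavoprotein subunit Sdha. Complex III ran from 46.8 for Uqcrq to 150.1 for the hinge protein gene Uqcrh. Complex IV ran from 6.43 for Cox7b2 to 441.7 for Cox7c, and complex V from 78.8 for Atp5k to Atp5b. The median member of complex I was at 52.3 FPKM, against 149.7 for complex V. FPKM is per length, but levels of different genes can be compared only roughly. The members differ in annotated transcripts, with 1 for Atp5b and 7 for Cox6b2. They also differ in mean transcript length, with 322 bases for Atp5k and 2900 for Sdha.

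**Figure D1:**
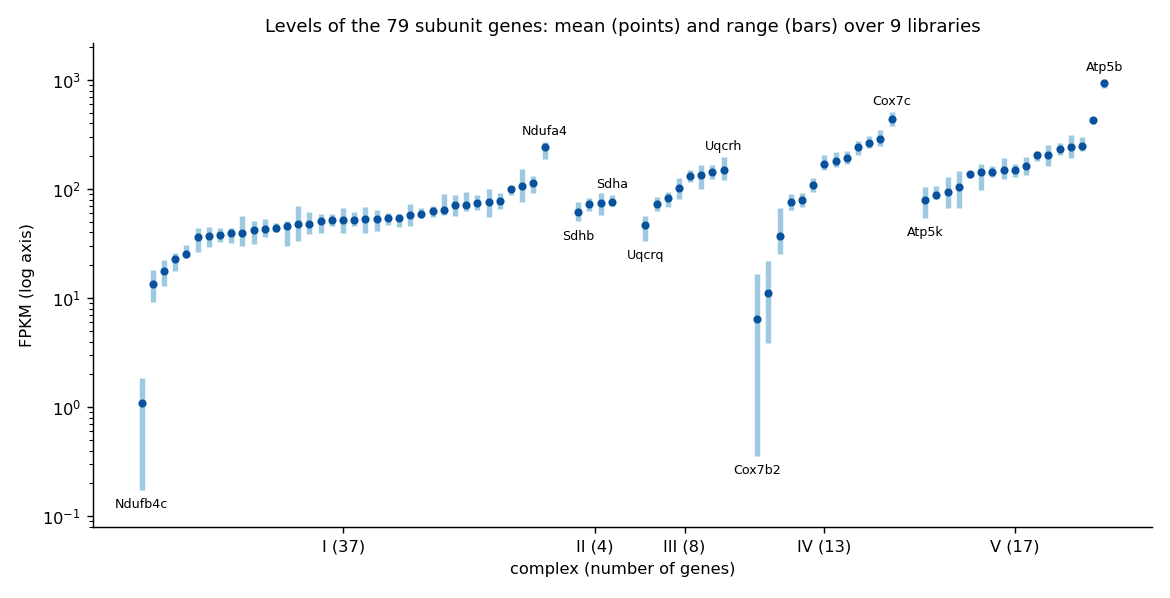
FPKM on a log axis for each of the 79 genes, grouped by complex and ordered by mean level. Points are means over the 9 libraries, which are 9 different conditions, and bars run from the lowest to the highest library. Most bars are short, and those of Ndufb4c and Cox7b2 are the long ones at the bottom.

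Most subunit genes varied little. The median SD of log2(FPKM + 1) over the 9 libraries was 0.16 for the members, 0.28 for all genes and 0.22 for genes above 20 FPKM. Atp5j, a peripheral stalk subunit gene of the ATP synthase, was the steadiest with an SD of 0.07 and a range of 127.4 to 144.6 FPKM. Cox7b2, Cox7a1 and Cox6b2, all complex IV isoforms, had the largest SDs at 1.20, 0.79 and 0.47. Together the members held 2.12 to 2.38% of each library's summed FPKM. That share was highest in 1KO at day 0 and lowest in 1KO+1CI at day 4. In bulk RNA, a lower level in every cell and fewer expressing cells cannot be told apart.

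The promoters of the 3 variable isoform genes and of Cox7b, the widely expressed partner of Cox7b2, are shown because CpG is the site that DNMT1 methylates. Methylation itself was not analysed here. Each line holds 250 bases before and 50 after the start from RefSeq on GRCm38.p6, 5′ to 3′ on the gene's strand, with every CpG in capitals. Cox7b2 is at chr5:71548156-71548455 (minus), Cox7b at chrX:106015450-106015749 (plus), Cox6b2 at chr7:4753045-4753344 (minus) and Cox7a1 at chr7:30183921-30184220 (plus).
Cox7b2: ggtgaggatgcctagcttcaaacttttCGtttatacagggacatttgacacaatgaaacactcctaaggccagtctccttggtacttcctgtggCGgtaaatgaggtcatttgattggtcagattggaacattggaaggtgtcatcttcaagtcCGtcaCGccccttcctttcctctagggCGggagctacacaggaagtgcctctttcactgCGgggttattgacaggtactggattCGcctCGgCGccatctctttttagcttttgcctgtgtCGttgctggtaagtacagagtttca
Cox7b: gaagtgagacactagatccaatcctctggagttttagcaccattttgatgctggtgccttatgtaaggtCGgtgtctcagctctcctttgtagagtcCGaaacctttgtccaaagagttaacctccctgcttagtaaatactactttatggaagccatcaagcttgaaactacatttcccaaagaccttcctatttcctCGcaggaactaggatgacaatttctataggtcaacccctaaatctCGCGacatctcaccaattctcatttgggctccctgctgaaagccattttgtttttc
Cox6b2: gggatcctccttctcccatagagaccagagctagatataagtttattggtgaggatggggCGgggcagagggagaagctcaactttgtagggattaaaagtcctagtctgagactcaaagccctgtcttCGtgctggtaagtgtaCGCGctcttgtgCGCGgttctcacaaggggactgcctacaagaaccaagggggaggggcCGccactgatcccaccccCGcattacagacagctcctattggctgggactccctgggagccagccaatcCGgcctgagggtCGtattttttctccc
Cox7a1: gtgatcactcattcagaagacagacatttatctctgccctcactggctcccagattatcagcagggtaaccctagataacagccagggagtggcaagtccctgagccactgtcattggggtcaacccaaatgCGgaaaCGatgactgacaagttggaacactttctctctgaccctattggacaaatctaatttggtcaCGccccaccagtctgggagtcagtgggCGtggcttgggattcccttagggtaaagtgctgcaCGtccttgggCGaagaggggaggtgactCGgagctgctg
The Cox7b2 and Cox6b2 windows hold 10 CpG each, Cox7a1 has 7 and Cox7b has 5.

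Those counts are low for the group. Of the 79 members, 67 had a RefSeq promoter, with a median of 19 CpG and a range of 5 to 43, and the median of all 10414 genes with one was 21. Letters of 3 motifs were searched on both strands. GCGCATG, of the nuclear respiratory factor NRF1, was in 13 member windows (19.4%) and in 7.26% of all windows. AAGATGG, of YY1, was in 10 (14.9%) and in 7.22% of all. CCGGAAG, of ETS factors such as GABPA, was in 16 (23.9%) and in 18.3% of all. No member window held overlapping ETS and YY1 matches. A match of letters is not a bound site, and these shares were not tested.

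In the comparison of 1KO with WT, the subunit genes did not move as a group in 1 direction over the days. Single libraries were compared as differences in log2(FPKM + 1), with no test. The median member was 0.12 higher in 1KO at day 0, 0.01 higher at day 2 and 0.06 lower (-0.06) at day 4. Higher were 53, 40 and 28 of 79 members, against 48.6%, 49.9% and 50.3% of all genes. The median over all genes above 20 FPKM moved the same way, at 0.08, 0.03 and -0.06. Past a difference of 0.5 in either direction lay 10 members at day 0, against 23.4% of the 13288 genes that reached 1 FPKM. The counts were 4 at day 2 and 3 at day 4, against 15.9% and 14.2% of all genes. Higher in 1KO at all 3 days were 14 members (17.7%), near the 16.3% of all genes, and lower at all 3 were 13 (16.5%), near 18.1%. Complex V had a median of 0.17 at day 0 with 2 of 17 genes lower, close to the 0.16 of complex III. At day 4 the complex V median was -0.04 with 13 lower, and that of complex III -0.13 with 7 of 8 lower.

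Line and day were then fitted together by limma over the 9 libraries, as additive terms, with p-values adjusted by Benjamini-Hochberg over 13288 genes. The spread in this fit is how much line differences vary between days, on 4 residual degrees of freedom a gene, and not the spread between cultures. For 1KO against WT the fit called 0.873% of all genes higher and 1.64% lower at an adjusted p under 0.05. Among the members it called 1 higher, Cox7b2, and 1 lower, Ndufa13, and 11 (13.9%) had an unadjusted p under 0.05, as did 15.5% of all genes. The median estimate of the members was 0.01, that of all genes 0.00.

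Cox7b2, the testis isoform of complex IV subunit 7b, was higher in the Dnmt1 mutant lines at every day. Its level in WT was 0.36, 2.21 and 1.15 FPKM at days 0, 2 and 4. In 1KO it was 5.36, 8.38 and 9.66 FPKM. In 1KO+1CI it was 6.90, 16.8 and 7.07 FPKM. All 6 mutant libraries thus lay above all 3 WT libraries. The gene lies at chr5:71442823-71548205 on the minus strand of GRCm38. Its single annotated transcript of 542 bases keeps the counts small. They came to about 4, 29 and 13 reads in WT, 81, 95 and 118 in 1KO, and 89, 193 and 77 in 1KO+1CI. The 1KO to WT ratio of reads per depth was 14.9 at day 0 (95% exact interval 5.61 to 56.1), 3.80 at day 2 (2.48 to 5.97) and 8.44 at day 4 (4.75 to 16.3). These intervals cover counting error only, and all exclude equal levels in these libraries.

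The fitted difference of Cox7b2 between 1KO and WT was 2.03 ± 0.23 (SE) on the log2(FPKM + 1) scale, a scale that understates changes of low genes (limma, adjusted p = 0.0090). Without the 1KO day 0 or the 1KO day 4 library the adjusted p was 0.0623 and 0.0593, and without all day 0 libraries 0.0914, with estimates of 1.99, 1.79 and 1.93. Its share of the summed Cox7b2 and Cox7b level was 0.315 to 2.04% for WT, 4.43 to 8.56% for 1KO and 5.65 to 14.0% for 1KO+1CI. Cox7b itself stayed between 94.6 and 126.5 FPKM in all libraries and was not called. The ubiquitous form therefore remained the main transcript of this subunit in every library.

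The testis form of cytochrome c, Cyct, which carries electrons between complexes III and IV and is no member, had the same order. It was at 3.62, 2.64 and 0.945 FPKM in WT, 6.27, 6.55 and 3.51 in 1KO, and 7.42, 6.56 and 3.11 in 1KO+1CI at days 0, 2 and 4. At each day both mutant lines were above WT, but the days overlapped. The fit gave 0.97 ± 0.14 for 1KO against WT (adjusted p = 0.0185). The call was lost without the WT day 2, 1KO day 0, 1KO day 2 or 1KO day 4 library, with adjusted p of 0.0717, 0.0623, 0.158 and 0.0955, and without the day 0 libraries (0.0792). Of 6 germ cell markers, 5 had a positive estimate and 1 was called higher in 1KO, Tex101, with an estimate of 1.27 (adjusted p = 0.0207, held in 5 of 9 fits that left out 1 library and lost without WT day 2 or any 1KO library). Their summed level lay at 20.5 to 43.4 FPKM in the WT libraries. It was 35.8 to 39.6 in those of 1KO and 26.9 to 47.0 in those of 1KO+1CI, and all these ranges overlap. No gene of the table was at 0 in any library, so a value above 0 says nothing particular about these markers. The part of other cells in the Cox7b2 and Cyct values was not tested.

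**Figure D2:**
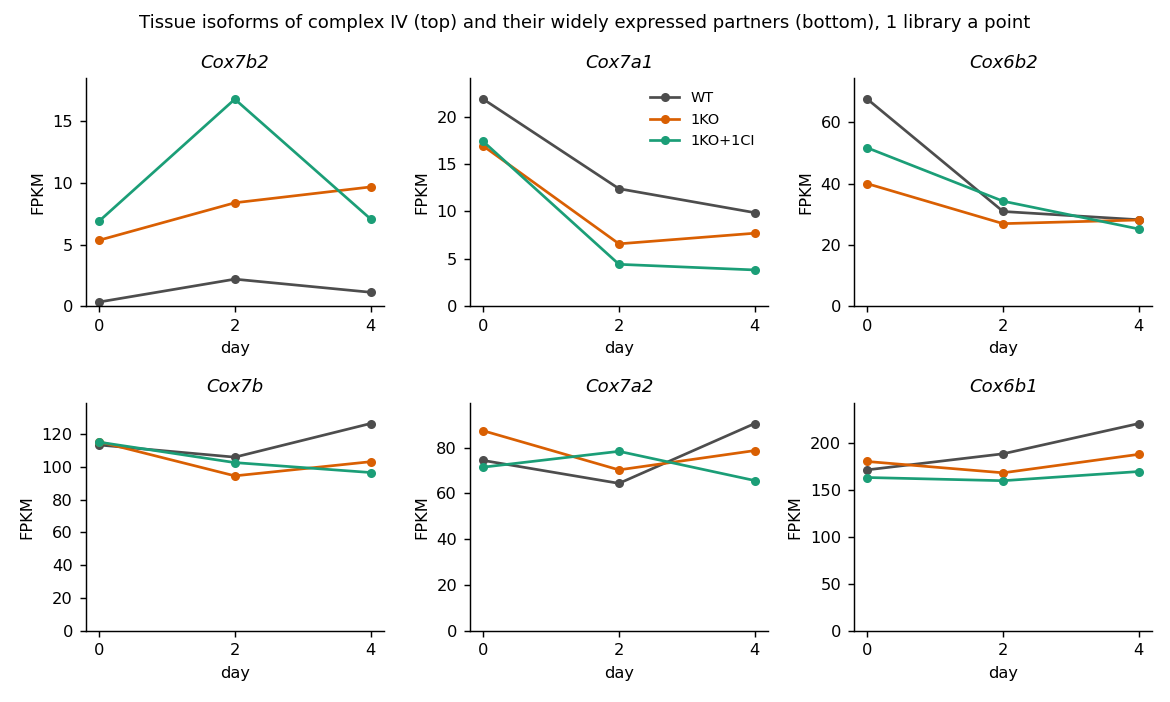
FPKM against day for the complex IV isoforms Cox7b2, Cox7a1 and Cox6b2 (top) and the partners Cox7b, Cox7a2 and Cox6b1 (bottom), 1 library a point, lines joining a cell line. Each axis starts at 0 and has its own range. Cox7b2 is lowest in WT at every day, Cox7a1 and Cox6b2 fall after day 0, and the partners stay in narrow ranges.

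Ndufa13, a complex I subunit gene also known as GRIM-19, was lower in both mutant lines at every day. It was at 52.2, 46.9 and 56.5 FPKM in WT, 29.8, 32.8 and 34.1 in 1KO, and 33.9, 36.8 and 36.8 in 1KO+1CI. The ranges of the lines did not overlap between WT and either mutant line. The fit gave -0.67 ± 0.10 for 1KO against WT (limma, adjusted p = 0.0169). The call was lost without the 1KO library of day 0, 2 or 4, with adjusted p of 0.0954, 0.125 and 0.0886, and without the day 0 libraries (0.113). Exons of Ndufa13 overlap those of Tssk6 on the opposite strand, and the strand setting of the counts is not given in the sources used here.

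Ndufa13 lies at chr8:69894163-69902558 (minus), and chromosome 8 as a whole was lower in the mutant lines. Over its 741 genes at 1 FPKM or more, the median difference of 1KO from WT was -0.47, -0.49 and -0.47 at days 0, 2 and 4. For 1KO+1CI from WT it was -0.54, -0.48 and -0.48. The other autosomes and the X lay between -0.09 and 0.13 in these comparisons, and between 1KO+1CI and 1KO chromosome 8 differed by -0.05 to 0.01. Of the 218 genes called lower in 1KO, 185 (84.9%) were on chromosome 8, which holds 5.58% of the genes tested. The copy number of the chromosome was not measured here.

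Of the 79 members, 2 lie on chromosome 8. With each chromosome's median taken out of every library, a step added with the values in view, Ndufa13 was at -0.19 (adjusted p = 0.458, over all other settings and left-out libraries 0.0142 to 0.125) and the fit called 62 genes higher and 12 lower. Cox7b2, on chromosome 5, stayed at 2.00 (adjusted p = 0.0099). Ndufb7, the other member on chromosome 8 (chr8:83566758-83571623, plus), encodes a complex I accessory subunit. It was at 104.2, 119.1 and 153.5 FPKM in WT, 82.9, 105.2 and 107.1 in 1KO, and 76.6, 104.6 and 111.9 in 1KO+1CI. It was below WT at each day in both lines, though the ranges overlap. Its estimate was -0.34 (adjusted p = 0.123), and 0.14 with chromosome medians taken out. The partner Cox4i1, the main regulatory subunit gene of complex IV and on the same chromosome, was at 649.4 to 722.3 FPKM in the WT libraries, 384.0 to 470.0 in those of 1KO and 385.6 to 425.8 in those of 1KO+1CI. Its estimate was -0.70 ± 0.10 (adjusted p = 0.0169) and -0.22 with chromosome medians taken out (0.419). That call was also lost without the WT day 2, 1KO day 0, 1KO day 2 or 1KO day 4 library, with adjusted p of 0.0724, 0.0623, 0.158 and 0.0984, and without the day 0 libraries (0.0758).

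**Figure D3:**
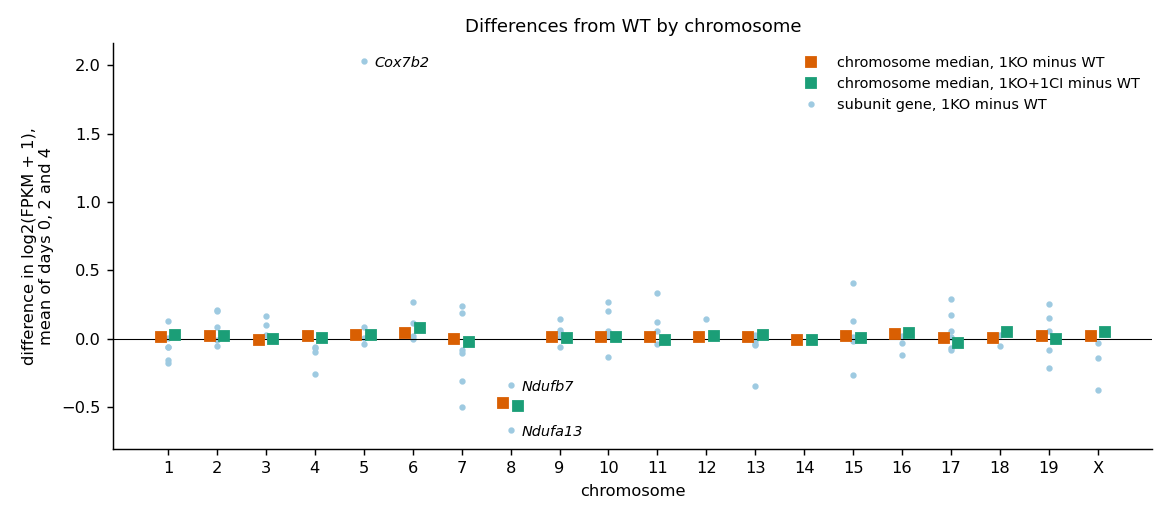
Difference from WT in log2(FPKM + 1), averaged over days 0, 2 and 4, by chromosome. Squares are medians over all genes of a chromosome for 1KO and 1KO+1CI, and dots are subunit genes in 1KO. Chromosome 8 is at -0.47 and -0.49, every other chromosome lies near 0, and Cox7b2 stands apart at the top.

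In the comparison of 1KO+1CI with 1KO, which asks what the inactive enzyme adds, most subunit genes were slightly lower at days 0 and 4. The median member differed by -0.16 at day 0, 0.00 at day 2 and -0.12 at day 4, with 67, 40 and 68 of 79 genes lower. Past 0.5 lay 7 members at day 0, 2 at day 2 and 2 at day 4, against 6.7%, 4.38% and 8.65% of all genes. Lower at all 3 days were 30 members (38.0%), against 15.9% of all genes, and higher at all 3 was 1 member (1.27%), Ndufa13, against 16.5%. The 30 came from every complex and included 9 genes of complex V, among them Atp5a1 and Atp5b, which encode the catalytic head. Day 2 differs from the others in that the group was centred on 0.

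The fit called 0 members in either direction for 1KO+1CI against 1KO, with 5 at an unadjusted p under 0.05 (Atp5k, Ndufa8, Sdhd, Uqcrfs1 and Uqcrh), all lower. These are 6.33% of the members, against 3.70% of all genes, and the count was 1 without 1KO day 0 or 1KO+1CI day 0 and 10 without 1KO+1CI day 2. It called 0.00753% of all genes higher, which is Dnmt1 itself, and 0% lower. The median estimate of the members was -0.10, with 13 of 79 above 0, and that of all genes 0.00. The members have short transcripts, with a median of 745 bases against 2641 for all genes. The 265 other genes above 20 FPKM with transcripts under 800 bases differed by -0.18, 0.02 and -0.13 at days 0, 2 and 4, close to the members. Lower at these days were 79.2%, 43.8% and 68.7% of them, and 26.0% were lower at all 3 days. The 991 such genes with transcripts of 3200 bases or more differed by 0.01, -0.01 and 0.05. With every library set to a common FPKM sum, 20 members were lower at all 3 days (25.3%), against 19.6% of the short genes and 11.5% of all, and 27 had a positive estimate. The part of transcript length in the member difference was not tested further.

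Ndufa8, a complex I accessory subunit gene, gave the largest single drop at day 0. It was at 69.8, 40.6 and 56.2 FPKM in 1KO and 38.7, 33.5 and 48.4 in 1KO+1CI, and at 45.3, 40.7 and 55.6 in WT. The 1KO day 0 library is the high one. Atp5k, a small membrane subunit gene of the ATP synthase, was at 103.6, 57.6 and 101.6 FPKM in 1KO and at 64.6, 54.1 and 71.9 in 1KO+1CI. Its transcripts average 322 bases. Both genes were lower in 1KO+1CI at each day and neither was called.

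**Figure D4:**
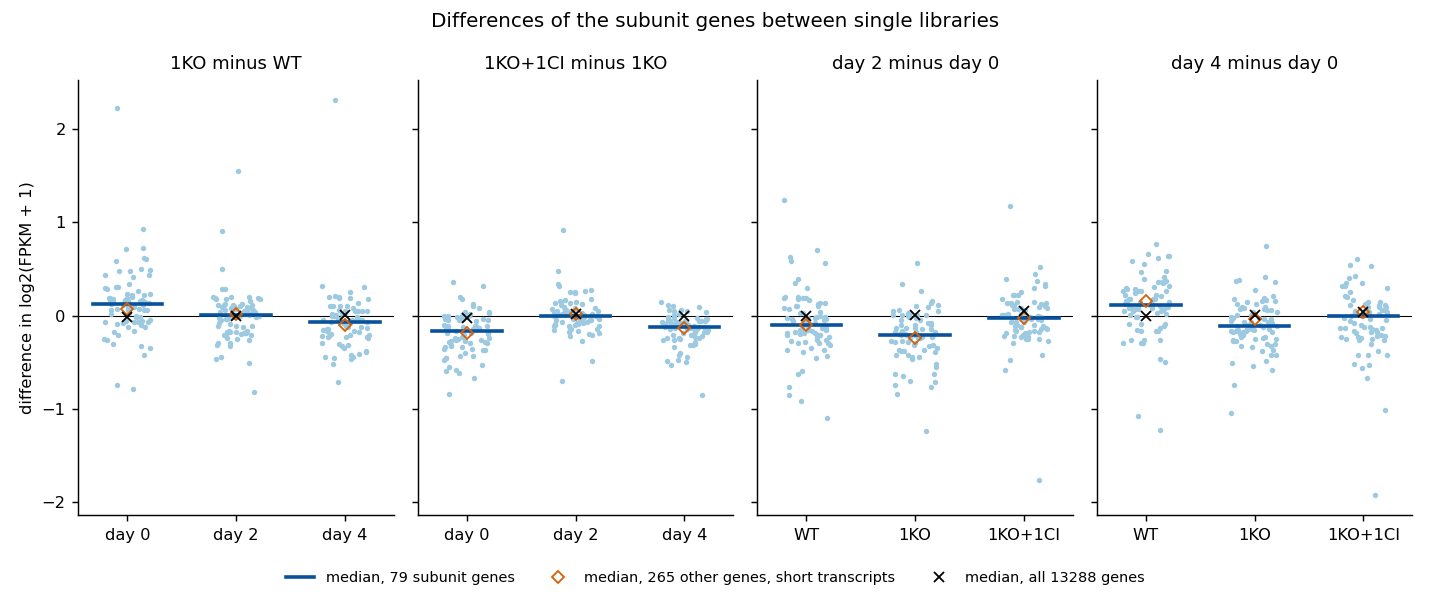
Differences in log2(FPKM + 1) between single libraries for each subunit gene (dots) in the line comparisons by day and in day 2 and day 4 against day 0 by line. Bars are member medians, diamonds medians of 265 other short genes above 20 FPKM, and crosses medians of all 13288 genes. In the panels for 1KO+1CI minus 1KO and day 2 minus day 0, each bar lies on or near its diamond.

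The course after LIF withdrawal was compared as day 2 and day 4 against day 0 within each line. At day 2 the median member differed by -0.10 in WT, -0.20 in 1KO but -0.02 in 1KO+1CI, with 53, 61 and 45 of 79 genes lower. The succinate dehydrogenase genes of complex II were lower in all 3 lines, all 4 genes each time, with medians of -0.24, -0.32 and -0.14. Of all genes, 49.2%, 50.2% and 55.4% were higher at day 2 in WT, 1KO and 1KO+1CI. Past 0.5 lay 11, 12 and 4 members, against 28.8%, 22.7% and 24.5% of all genes. The 265 short genes differed by -0.10, -0.24 and -0.02. On a common FPKM sum the member medians were -0.028, -0.093 and 0.022, so the sign in 1KO+1CI changed. Medians by complex were not computed on that scale.

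At day 4 the lines differed in sign. The median member was 0.11 higher in WT, -0.11 in 1KO but 0.00 in 1KO+1CI, with 58, 26 and 39 of 79 genes higher than at day 0. Of all genes, 49.2%, 50.7% and 53.4% were higher. The short genes were at 0.15, -0.04 and 0.04, with 32.5%, 54.3% and 47.5% of them lower. Past 0.5 lay 10, 6 and 9 members, against 28.3%, 31.6% and 33.6% of all genes. The share of members past 0.5 was thus below that of all genes in each line. With every library set to a common FPKM sum the medians were 0.020, -0.096 and 0.003, so the WT rise was nearly lost. The difference between lines was not tested.

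In the fit, day 2 against day 0 called 8.65% of all genes higher and 8.83% lower. Among the members 2 were higher (Cox7b2 and Ndufb7) and 3 lower (Cox7a1, Cox6b2 and Ndufb4). For all genes the calls were 1150 higher and 1173 lower, and 1630 and 956 on a common FPKM sum. Day 4 against day 0 called 12.5% of all genes higher and 13.3% lower. Among the members 3 were higher (Atp5md, Ndufb7 and Ndufc2) and 4 lower (Cox7a1, Cox6b2, Ndufb4 and Uqcrc1). Both contrasts share the day 0 libraries.

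Cox7a1, the heart and skeletal muscle isoform of subunit 7a, fell in every line. It was at 21.8, 12.4 and 9.88 FPKM in WT, 16.9, 6.59 and 7.71 in 1KO, and 17.4, 4.44 and 3.84 in 1KO+1CI at days 0, 2 and 4. All 3 day 0 libraries lay above all later ones. The fit gave -1.25 ± 0.20 at day 2 (limma, adjusted p = 0.0064) and -1.34 ± 0.20 at day 4 (0.0028), both called without any 1 library. For 1KO against WT the estimate was -0.50 with an adjusted p of 0.284. Its share of the summed Cox7a1 and Cox7a2 level went from 16.2 to 22.7% at day 0 to 5.36 to 16.1% later.

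Cox6b2, the testis isoform of subunit 6b, had a like course. It was at 67.5, 30.9 and 28.2 FPKM in WT, 39.9, 26.9 and 28.1 in 1KO, and 51.6, 34.3 and 25.2 in 1KO+1CI. Day 0 again lay above both later days in all lines. The fit gave -0.74 ± 0.15 at day 2 (adjusted p = 0.0150) and -0.91 ± 0.15 at day 4 (0.0042). The day 2 call was lost without the WT day 2, 1KO day 2 or 1KO+1CI day 0 library, with adjusted p of 0.0566, 0.0817 and 0.0602. The partners Cox7a2 and Cox6b1 were not called in any contrast.

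Fibroblast markers fell at the same step. All 7 of the feeder markers in the table were called lower at days 2 and 4. Their summed level was 91.4 to 199.5 FPKM at day 0 and 11.7 to 26.5 later. None was at 0, but neither was any other gene of the table. Between lines 0 were called, although all 7 estimates were positive both for 1KO against WT and for 1KO+1CI against 1KO, with 4 and 2 at an unadjusted p under 0.05. Collagen Col1a1 was at 39.0, 76.0 and 74.4 FPKM in WT, 1KO and 1KO+1CI at day 0. Within day 0, WT had the lowest marker sum and the highest Cox7a1 and Cox6b2. Between the mutant lines the order was the other way. The day 0 marker sum was 199.5 FPKM in 1KO+1CI and 175.9 in 1KO, with Cox6b2 at 51.6 and 39.9 and Cox7a1 at 17.4 and 16.9. The part of feeder cells in the falls of the isoform genes was not tested.

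Cox7b2 went the other way, with an estimate of 0.99 ± 0.23 at day 2 (adjusted p = 0.0233). Its call was lost without the WT day 0, WT day 2, 1KO day 0, 1KO+1CI day 0 or 1KO+1CI day 2 library, with adjusted p of 0.0634, 0.0749, 0.069, 0.0707 and 0.102. At day 4 it was 0.48 and not called. Of the other isoforms on the list, Cox6a2, Cox8b and Cox8c were not analysed here. The main forms Cox6a1 and Cox8a, at means of 263.0 and 289.4 FPKM, were not called.

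In complex I, Ndufb4 was lower after day 0 in each line. It was at 73.7, 57.0 and 52.9 FPKM in WT, 72.7, 46.2 and 51.0 in 1KO, and 70.7, 52.4 and 47.4 in 1KO+1CI. Its day 0 levels were alike in the lines and above all later ones. The estimates were -0.48 ± 0.09 (adjusted p = 0.0132) and -0.51 ± 0.09 (0.0063). Without the 1KO day 0, 1KO day 2 or 1KO+1CI day 0 library the day 2 value had an adjusted p of 0.0567, 0.104 and 0.0602. Reads of Ndufb4 and its near copy Ndufb4c may have been split in counting, and Ndufb4c itself rested on about 1.6 to 16.4 reads.

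Ndufb7, whose levels are given above, rose with day by 0.33 ± 0.10 (adjusted p = 0.0495) and 0.49 ± 0.10 (0.0086). The day 2 call held in 2 of 9 fits that left out 1 library, those without WT day 2 or WT day 4, and adjusted p ranged from 0.0317 to 0.237. It was also lost with chromosome medians taken out (0.0641), without the trend (0.0883) and at a pseudocount of 0.01 (0.0504). The day 4 call was lost without the 1KO+1CI day 0 library (0.0567). Ndufc2, a membrane arm subunit gene, was at 46.5, 45.8 and 58.1 FPKM in WT, 56.8, 51.2 and 63.8 in 1KO, and 41.1, 51.3 and 62.8 in 1KO+1CI. Day 4 was the highest day in each line, with an estimate of 0.36 ± 0.11 (adjusted p = 0.0431). That call held in 1 of 9 fits that left out 1 library, the fit without 1KO day 0, with adjusted p from 0.0450 to 0.199, and it was lost without the trend (0.0707).

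In complex III, the core subunit gene Uqcrc1 was lowest at day 4 in each line. It was at 144.9, 139.3 and 120.5 FPKM in WT, 166.9, 145.7 and 114.2 in 1KO, and 135.6, 136.0 and 101.1 in 1KO+1CI. Every day 4 library was below every earlier one. The estimate was -0.41 ± 0.09 (adjusted p = 0.0137). It lost its call without the 1KO day 0, 1KO day 4, 1KO+1CI day 0 or 1KO+1CI day 4 library, with adjusted p of 0.068, 0.0751, 0.059 and 0.0578.

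In complex V, Atp5md, which encodes a small membrane subunit also called DAPIT, rose by day 4. It was at 165.7, 178.2 and 255.4 FPKM in WT, 204.5, 204.9 and 247.9 in 1KO, and 162.1, 212.4 and 234.8 in 1KO+1CI. All day 4 libraries were above all others. The estimate was 0.48 ± 0.11 (adjusted p = 0.0153), with 0.0915 without the 1KO+1CI day 0 library. Its exons overlap those of Taf5 on the opposite strand.

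**Figure D5:**
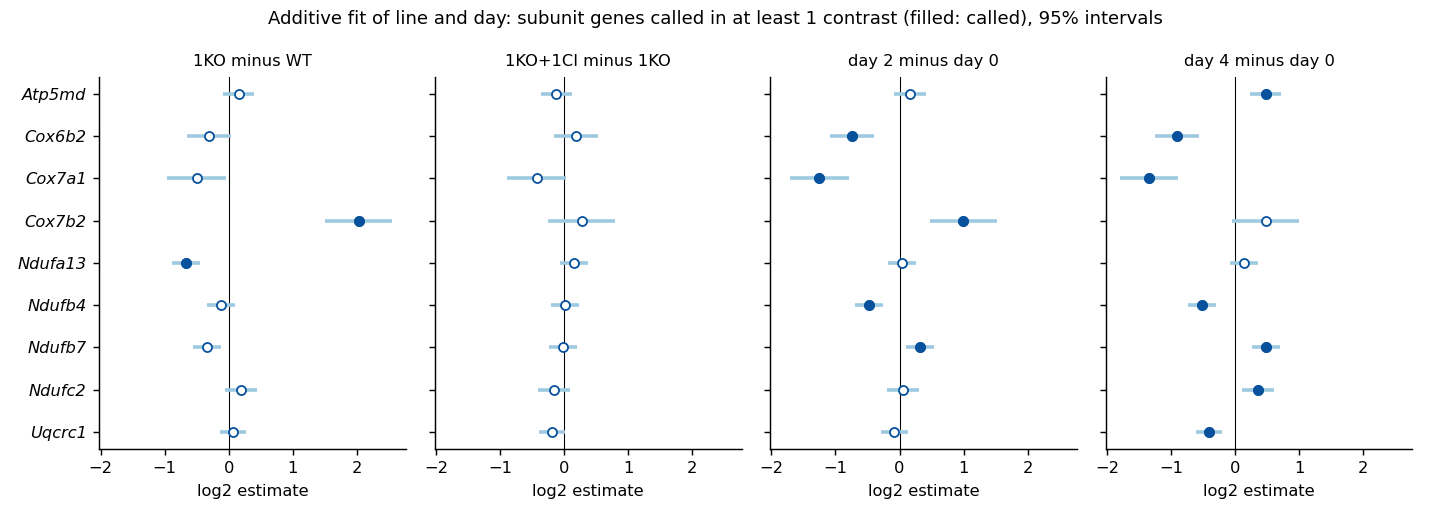
Estimates on the log2(FPKM + 1) scale with 95% intervals from the additive fit for the 9 subunit genes called in at least 1 contrast. Filled points were called at an adjusted p under 0.05 over all genes. Cox7b2 and Ndufa13 are filled in 1KO minus WT, none in 1KO+1CI minus 1KO, and Cox7a1, Cox6b2 and Ndufb4 are filled to the left in both day contrasts.

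Other genes of the pathway were taken from lists by role. Of 46 tested assembly factors of the complexes, 0 were called higher and 1 lower in 1KO against WT (all genes 0.873% and 1.64%). That gene was Uqcc2, a complex III factor, with an estimate of -0.64 (adjusted p = 0.0470), and it was at 56.1 to 76.1 FPKM in the WT libraries, 31.6 to 56.6 in those of 1KO and 40.4 to 46.4 in those of 1KO+1CI. At an unadjusted p under 0.05 there were 3, against 15.5% of all genes. Between 1KO+1CI and 1KO, 0 were called and 1 had an unadjusted p under 0.05. At day 2, 1 was higher, Tmem126b of complex I (0.74), and 5 were lower, Ndufaf6, Ndufaf8, Nubpl and Foxred1 of complex I and Uqcc2. At day 4, 2 were higher, the complex IV factors Coa3 (0.52) and Coa6 (0.48), and 2 lower, Sco1 (-0.63), which delivers copper to complex IV, and Cox18 (-0.51). Of all genes, 8.65% were called higher and 8.83% lower at day 2, and 12.5% and 13.3% at day 4. None of the calls of assembly factors held in all 9 fits that left out 1 library. Coa3 held in 8 (0.0513 without 1KO+1CI day 0) and Cox18 in 7 (up to 0.0829, lost without 1KO day 0 or 1KO day 4), while Uqcc2 held in 1 against WT and in 2 at day 2.

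The carriers of electrons split at day 4. Somatic cytochrome c, Cycs, was higher (0.41, adjusted p = 0.0307) and its testis form Cyct lower (-0.99, adjusted p = 0.0025, called without any 1 library). The Cycs call held in 1 of 9 such fits, the one without WT day 2. Cycs was at 23.7 to 39.8 FPKM in WT and at 36.5 to 46.6 in the mutant lines. Of the partner subunits, Cox4i2, the lung form of subunit 4, was at 0.132 to 2.32 FPKM and was called lower at day 2 (-0.87), a call lost without 1KO day 2 or 1KO+1CI day 0 (adjusted p up to 0.0806). Ndufab1, Cyc1 and the ATP synthase inhibitor gene Atpif1 were not called in any contrast.

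Of 11 tested regulators of mitochondrial genes, 0 were called between lines and 0 had an unadjusted p under 0.05. Esrra, a nuclear receptor that drives these genes, was lower at day 2 (-0.63) and day 4 (-0.46). Gabpa (-0.49) and the coactivator Pprc1 (-0.47) were lower at day 4 too, and exons of Gabpa overlap those of Atp5j. With 1 library left out, the Esrra calls held in 7 and 3 of 9 fits, Gabpa in 5 and Pprc1 in 6, each lost without 1KO day 0 among others. Of 14 genes of the citrate cycle, which supplies NADH and succinate to complexes I and II, 2 were higher and 3 lower at day 2. At day 4, 1 was higher and 4 lower, among them citrate synthase Cs (-0.43), which held in 5 of 9. The shares of all genes called were 8.65% higher and 8.83% lower at day 2, and 12.5% and 13.3% at day 4. Between lines 0 of the 14 were called, and 0 had an unadjusted p under 0.05. Of 5 tested primitive endoderm markers, 0 were called between lines, with 1 and 2 at an unadjusted p under 0.05, and 4 and 5 estimates were positive. Over all 6 listed markers, the summed level at days 0, 2 and 4 was 3.12, 1.91 and 3.01 FPKM for WT. It was 5.33, 2.88 and 5.42 for 1KO, and 7.58, 6.74 and 9.30 for 1KO+1CI. The sum thus rose in the order of the line comparisons at every day, but Gata4 was lower in 1KO than in WT at each day. At day 0 the marker Pdgfra was at 0.83, 1.77 and 3.48 FPKM in WT, 1KO and 1KO+1CI. The part of the sum in the line differences of the subunit genes was not tested.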

How the data were processed

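The authors made poly(A) libraries, sequenced them as paired ends, used Trim Galore for trimming and HISAT2 for alignment to mm10, and deposited FPKM per gene symbol computed with HOMER. Tool versions, strandedness and how multiply mapping reads were treated were not given in the sources used here. Depth was recovered from the steps of low FPKM values, of which 41.3 to 50.2% lay within 0.1 read of a whole number, so reads are estimates.

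Of 15095 entries, 21 with damaged symbols were left out. Values were analysed as log2(FPKM + 1) with Python 3.11.15 and limma 3.58.1 (R 4.3.3). Single libraries were compared without a test. The additive fit of line and day used all 9 libraries, genes with at least 1 FPKM in some library, a mean-variance trend and a Benjamini-Hochberg threshold of 0.05. The fit was first run on simulated data with independent noise and the same line difference at each day. That run cannot show how the p-values behave where line differences vary between days. P-values measure only the spread among these libraries. The members and lists were chosen with earlier results of these data known. Named were the highest and lowest member of each complex, members with a single-library difference of at least 1 log2 unit, called members, complex IV isoforms with their partners, Dnmt1 and the leading called gene of each list. Ndufa8, Atp5k, Atp5j and further called list genes were added after their values were seen. Gene positions are from RefSeq, and gene strands, transcript lengths and exon overlaps from GENCODE M21. Symbols matched RefSeq for 78 members, and Atp5f1 by an older symbol. The repeat table was not used.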

Additional observations from a re-analysis of the deposited data

Results flagged for a closer look

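The median difference of the subunit genes between day 4 and day 0 had opposite signs in WT and 1KO. It was 0.11 in WT and -0.11 in 1KO on the log2(FPKM + 1) scale, with 58 and 26 of 79 genes higher at day 4. Of all genes, 49.2% and 50.7% were higher. The 265 other short genes above 20 FPKM were at 0.15 and -0.04, and on a common FPKM sum the WT median was 0.02. With 1 library a condition the difference between lines was not tested, and its cause was not tested. Each condition has 1 library, so no sample could be compared with others of its own group. In an additive fit of line and day to the 9 member medians, the residuals ran from -0.05 in WT day 0 to 0.08 in 1KO day 0, with a residual SD of 0.06.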

How the results depend on the processing

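The medians kept within 0.06, the residual SD of a library's member median in an additive fit, in 68 of 72 alternatives. A common FPKM sum moved the other 4, out of 12 medians on that scale. They went to -0.098 for 1KO+1CI against 1KO at day 0, -0.028 and -0.093 for day 2 in WT and 1KO, and 0.020 for day 4 in WT. A filter at 1 FPKM was among the alternatives and kept all 79 members, so it could not move a median. Pseudocounts of 0.1 and 0.01 could move the medians little, because most members lie far above 1 FPKM. The counts past 0.5 kept within 1.5 times in 43 of 48. In 1KO+1CI against 1KO, a pseudocount of 0.1 or 0.01 gave 4 members at day 2 and 4 at day 4, and a common sum gave 1 at day 4.

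For members called in the limma fit, leaving out 1 library at a time gave 0 to 1 higher and 0 to 1 lower for 1KO against WT, 0 to 2 higher and 1 to 5 lower for day 2, and 0 to 3 higher and 3 to 8 lower for day 4. For 1KO against WT, 0 were higher without 1KO day 0 or 1KO day 4, and 0 were lower when each 1KO library in turn was left out. At day 2, 0 were higher without WT day 0, 1KO day 0, 1KO+1CI day 0 or 1KO+1CI day 2, 1 was lower without 1KO+1CI day 0 and 5 without 1KO+1CI day 2. At day 4, 0 were higher without 1KO+1CI day 0 and 8 lower without WT day 0. Without the day 0 libraries 0 members were called in either direction for 1KO against WT, on fewer samples. With chromosome medians taken out, chosen after seeing the data, 0 were lower in 1KO and 1 was higher at day 2. A pseudocount of 0.01 and a fit without the trend also gave 1 higher at day 2. The cause of these changes was not tested, and no estimate of a called member, Cox4i1 or Cyct changed sign. No paired analysis was possible because every library is replicate 1 of its condition, so a replicate number is no block. Lines were compared within days by the day term of the fit.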
